A study of Mus musculus with 18 samples.

Results

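The interferon-stimulated genes examined here were 41 genes chosen by symbol, and all 41 were found among the 35441 genes of the liver count table and passed the filter on low counts that left 14533 genes for testing. Livers came from 18 male mice in 6 groups of 3. WT littermates, Lipa-/- mice (KO in the plots) and Lipa-/- mice that had received rAAV8.hAAT.LIPA (KOT in the plots) were each sampled 12 and 34 weeks after injection, times that the labels give as 3 and 8 months. Lipa encodes lysosomal acid lipase, and the Lipa-/- mice, on a C57/BL6N background, lacked exon 4 of Lipa after germline recombination with a CMV-Cre line. The treated mice carried the same deletion and received, by tail vein as young adults, an adeno-associated virus of serotype 8 with a tagged human LIPA cDNA behind hAAT, a promoter active in hepatocytes. WT and untreated Lipa-/- mice are labelled as given no treatment, so that the vector capsid, the injection and the transgene are confounded in the treated group. By the study's methods, most Lipa-/- mice of the late group had reached an endpoint and were killed before the 34-week time point. The 34-week mice carry 1 number prefix in the labels and the 12-week mice others, so that time and prefix cannot be told apart. Among the 12-week mice, Lipa-/- mouse 5 alone carries a prefix different from that of the rest. What the prefix stands for is not stated in the labels.

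Interferons are secreted proteins that bind receptors on the cell surface and, through JAK kinases, activate transcription factors, Stat2 and Irf9 among them. Type I and type III interferons act mainly through a promoter element termed the ISRE, and type II interferon acts through an element termed GAS. The induced genes encode sensors of foreign nucleic acid, proteins that block viral RNA and entry, GTPases that attack the vacuoles of intracellular pathogens, and regulators that feed back on the pathway. In the liver they are expressed in hepatocytes and in Kupffer and other immune cells.

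The promoters of the members given mouse by mouse below are shown first, since these genes moved in different directions although they are grouped by a common inducer. RefSeq promoter windows on GRCm38.p6, from 250 bases before to 50 bases after each annotated start, were held for 30 of the 41 members. The ISRE-like motif GAAANNGAAA, searched on both strands, was present in 20 of these 30 members (66.7%) and in 3.99% of all 27025 genes of the table. The GAS-like motif TTCNNNGAA, also searched on both strands, was present in 10 members (33.3%) and in 9.55% of all genes. Both motifs were present in 8 members, neither in 8, and matches of the motifs overlapped each other in 2 members. The lines below give the 250 bases upstream of the start, 5′ to 3′ on the strand of the gene, for up to 8 members in order of role, with capitals marking motif matches. Irf7 lies at chr7:141266425-141266674 on the minus strand, Irf9 has windows at chr14:55603735-55603984 and chr14:55604329-55604578 on the plus strand, and Isg15 lies at chr4:156200819-156201068 on the minus strand. Ifit2 has windows at chr19:34550444-34550693 and chr19:34550838-34551087, and Ifit3 lies at chr19:34583279-34583528, all on the plus strand. Oas1a lies at chr5:120907526-120907775 and Oas3 at chr5:120777660-120777909, both on the minus strand, and Oasl1 lies at chr5:114922990-114923239 on the plus strand.
Irf7: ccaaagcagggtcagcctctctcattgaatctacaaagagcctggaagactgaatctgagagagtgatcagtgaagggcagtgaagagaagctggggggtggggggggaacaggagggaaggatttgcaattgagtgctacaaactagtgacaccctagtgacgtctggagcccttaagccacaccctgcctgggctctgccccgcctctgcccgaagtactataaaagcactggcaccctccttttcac
Irf9, upstream window: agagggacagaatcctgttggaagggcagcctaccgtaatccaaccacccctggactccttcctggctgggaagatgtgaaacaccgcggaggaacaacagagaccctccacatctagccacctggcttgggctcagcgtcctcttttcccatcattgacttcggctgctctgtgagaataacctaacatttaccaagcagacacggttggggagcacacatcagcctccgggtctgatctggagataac
Irf9, downstream window: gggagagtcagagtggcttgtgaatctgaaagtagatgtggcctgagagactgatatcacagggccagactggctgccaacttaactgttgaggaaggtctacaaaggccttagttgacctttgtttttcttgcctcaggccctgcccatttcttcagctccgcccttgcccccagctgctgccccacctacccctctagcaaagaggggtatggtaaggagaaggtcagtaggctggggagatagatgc
Isg15: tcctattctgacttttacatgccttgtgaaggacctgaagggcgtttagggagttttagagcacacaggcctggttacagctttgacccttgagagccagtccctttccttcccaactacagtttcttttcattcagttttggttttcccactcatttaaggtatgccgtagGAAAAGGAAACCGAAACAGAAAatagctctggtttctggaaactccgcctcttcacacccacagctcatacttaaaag
Ifit2, upstream window: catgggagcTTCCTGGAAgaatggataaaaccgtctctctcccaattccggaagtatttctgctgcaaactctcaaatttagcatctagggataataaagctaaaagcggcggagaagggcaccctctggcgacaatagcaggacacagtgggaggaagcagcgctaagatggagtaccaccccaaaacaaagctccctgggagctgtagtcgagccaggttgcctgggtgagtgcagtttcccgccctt
Ifit2, downstream window: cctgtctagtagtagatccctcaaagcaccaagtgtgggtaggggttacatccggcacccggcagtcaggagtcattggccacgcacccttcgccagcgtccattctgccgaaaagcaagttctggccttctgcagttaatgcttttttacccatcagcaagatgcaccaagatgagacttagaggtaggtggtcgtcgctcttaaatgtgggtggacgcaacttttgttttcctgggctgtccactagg
Ifit3: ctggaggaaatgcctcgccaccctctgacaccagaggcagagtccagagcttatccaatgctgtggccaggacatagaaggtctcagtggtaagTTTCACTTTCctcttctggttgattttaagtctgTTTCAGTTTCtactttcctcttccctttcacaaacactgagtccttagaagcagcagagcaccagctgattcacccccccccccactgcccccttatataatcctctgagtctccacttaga
Oas1a: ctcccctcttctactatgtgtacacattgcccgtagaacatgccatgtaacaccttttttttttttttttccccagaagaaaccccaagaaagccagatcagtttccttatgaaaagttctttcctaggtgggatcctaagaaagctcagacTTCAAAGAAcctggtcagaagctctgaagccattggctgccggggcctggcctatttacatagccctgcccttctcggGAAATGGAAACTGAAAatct
Oas3: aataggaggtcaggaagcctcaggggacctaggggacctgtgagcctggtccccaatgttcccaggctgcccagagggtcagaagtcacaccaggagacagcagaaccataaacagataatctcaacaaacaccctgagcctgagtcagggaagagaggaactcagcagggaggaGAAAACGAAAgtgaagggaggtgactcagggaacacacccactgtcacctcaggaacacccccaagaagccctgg
Oasl1: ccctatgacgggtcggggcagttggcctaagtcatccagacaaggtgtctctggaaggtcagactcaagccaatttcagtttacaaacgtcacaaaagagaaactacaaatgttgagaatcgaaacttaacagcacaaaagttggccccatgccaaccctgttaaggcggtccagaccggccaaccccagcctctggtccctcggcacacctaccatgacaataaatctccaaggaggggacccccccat
Isg15 held 3 overlapping ISRE-like matches that began 78, 72 and 66 bases before the start. Ifit3 held 2, at 156 and 122 bases, and Oas3 held 1, at 75 bases. Oas1a held 2 ISRE-like matches, at 20 and 14 bases, and a GAS-like match at 98 bases. The only match in the Ifit2 windows was a GAS-like match at 241 bases in the upstream window, and no match was found in the windows of Irf7, Irf9 and Oasl1. A match is a string of letters and not a measured binding site, and the lack of a match says only that these letters are not in this window. These coordinates are those of the RefSeq table, while the reads were quantified against transcripts of GRCm39.

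Between 17527824 and 25833059 reads were assigned in each mouse. Mouse Lipa averaged 237 ± 32.8 CPM (counts per megaread of library size after TMM scaling, mean ± SD, n = 3) in WT mice and 24.8 ± 8.33 in Lipa-/- mice at 12 weeks, and 305 ± 20.1 and 19.0 ± 0.773 at 34 weeks. In treated mice the human LIPA transgene averaged 1705 ± 869 CPM at the early and 1528 ± 1127 CPM at the late time point. Summed CPM of the 6 hepatocyte markers lay below every WT mouse of the same time in all Lipa-/- mice, between 38723 and 58681 against 64087 to 80964 at 12 weeks, and between 22891 and 49556 against 58623 to 76968 at 34 weeks, with 3 and 4 of the 6 called lower. Summed CPM of the 6 markers of lipid-laden macrophages in Lipa-/- mice lay between 2514 and 5748 early and between 3754 and 5387 late, against at most 54.2 in WT mice and 297 in treated mice. Neutrophil, stellate cell, cholangiocyte, plasmacytoid dendritic cell and T and NK cell marker sums were also higher in all Lipa-/- mice than in all WT mice. The plasmacytoid dendritic cell markers were at 14.1 CPM or more against at most 8.99, and the T and NK cell markers at 8.31 CPM or more against at most 6.41. Not every marker of a list rose. Of 6 stellate cell markers, 4 were called higher and 1 lower at 12 weeks, and 4 higher and 2 lower at 34 weeks. Of 6 plasmacytoid dendritic cell markers, 4 passed the filter and 2 were called higher at each time. Sinusoidal endothelial cell markers summed to 107 to 126 CPM in Lipa-/- against 134 to 187 CPM in WT mice at 12 weeks, and overlapped at 34 weeks. Of these 6, 1 was called higher and 3 lower at 12 weeks, and 2 higher and 3 lower at 34 weeks. Kupffer cell sums overlapped between Lipa-/- and WT mice at both times. Of 6 Kupffer cell markers, 2 were called higher and 1 lower at 12 weeks, and 0 higher and 3 lower at 34 weeks. Spp1 is in both the cholangiocyte and the lipid-laden macrophage list, so that these sums are not separate. In treated mice at 12 weeks several sums also lay above every WT mouse of that time. Among these were Kupffer cell (352 to 528 against 92.08 to 219 CPM), stellate cell (325.3 to 846.5 against 99.3 to 194 CPM) and B and plasma cell markers (16.64 to 38.09 against 2.722 to 4.977 CPM). The part of these cells in the members' levels was not tested. In bulk liver, fewer cells of a type and less RNA per cell cannot be told apart.

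The 41 members did not move together in Lipa-/- mice. At 12 weeks, 8 members rose and 2 fell against WT mice, where a gene was called when its fold was over 2 and its adjusted p under 0.05 in the quasi-likelihood test of edgeR (Benjamini-Hochberg over all genes tested). Of all genes tested, 20.2% were called higher and 9.06% lower, and the members called higher were 8 of 41. With total counts in place of TMM scaling, 9 members were called higher and 0 lower, where the median of all genes moved from 0.02 to 0.49. At 34 weeks, 4 members rose and 6 fell, where 20.5% of all genes were called higher and 15.7% lower. With total counts this became 8 higher and 1 lower, where the median of all genes moved from -0.03 to 0.60. The median log2 difference over the 41 members was -0.05 at 12 weeks and -0.49 at 34 weeks, beside 0.02 and -0.03 over all genes tested. Ifit2, Oas1a, Oas3 and Oasl2 were higher at both times, and Oasl1 and Iigp1 were lower at both times. No member had an interaction of genotype and time past the threshold, where 0.0619% of all genes were called in either direction, 2 members had an unadjusted p under 0.05, and DESeq2 also called 0. The same 3 WT mice serve each comparison at a time point.

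In treated mice the pattern differed between the times. At 12 weeks, 7 members were higher and 2 lower than in WT mice, where 13.6% of all genes were called higher and 12.0% lower. These 9 calls became 2 without WT mouse 3, 2 without treated mouse 10 and 5 without WT mouse 1, and with total counts 2 members were higher and 4 lower. At 34 weeks no member was called in either direction by edgeR or by DESeq2, where 0.131% of all genes were called higher and 0.0895% lower, and 4 members had an unadjusted p under 0.05. Compared with untreated Lipa-/- mice, 8 members were higher and 6 lower at 12 weeks, where the backgrounds were 16.2% and 25.3%. At 34 weeks, 15 were higher and 1 lower, where the backgrounds were 12.8% and 18.6%. The median log2 difference over the members, treated minus untreated Lipa-/- mice, was 0.16 at 12 weeks and 0.84 at 34 weeks, beside -0.19 and 0.03 over all genes. With total counts the split was 4 higher and 4 lower at 34 weeks and 3 higher and 16 lower at 12 weeks, where the median of all genes moved to -0.51 and -1.05. The 16 calls at 34 weeks became 10 without treated mouse 12 and 6 without Lipa-/- mouse 4.

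**Figure D1:**
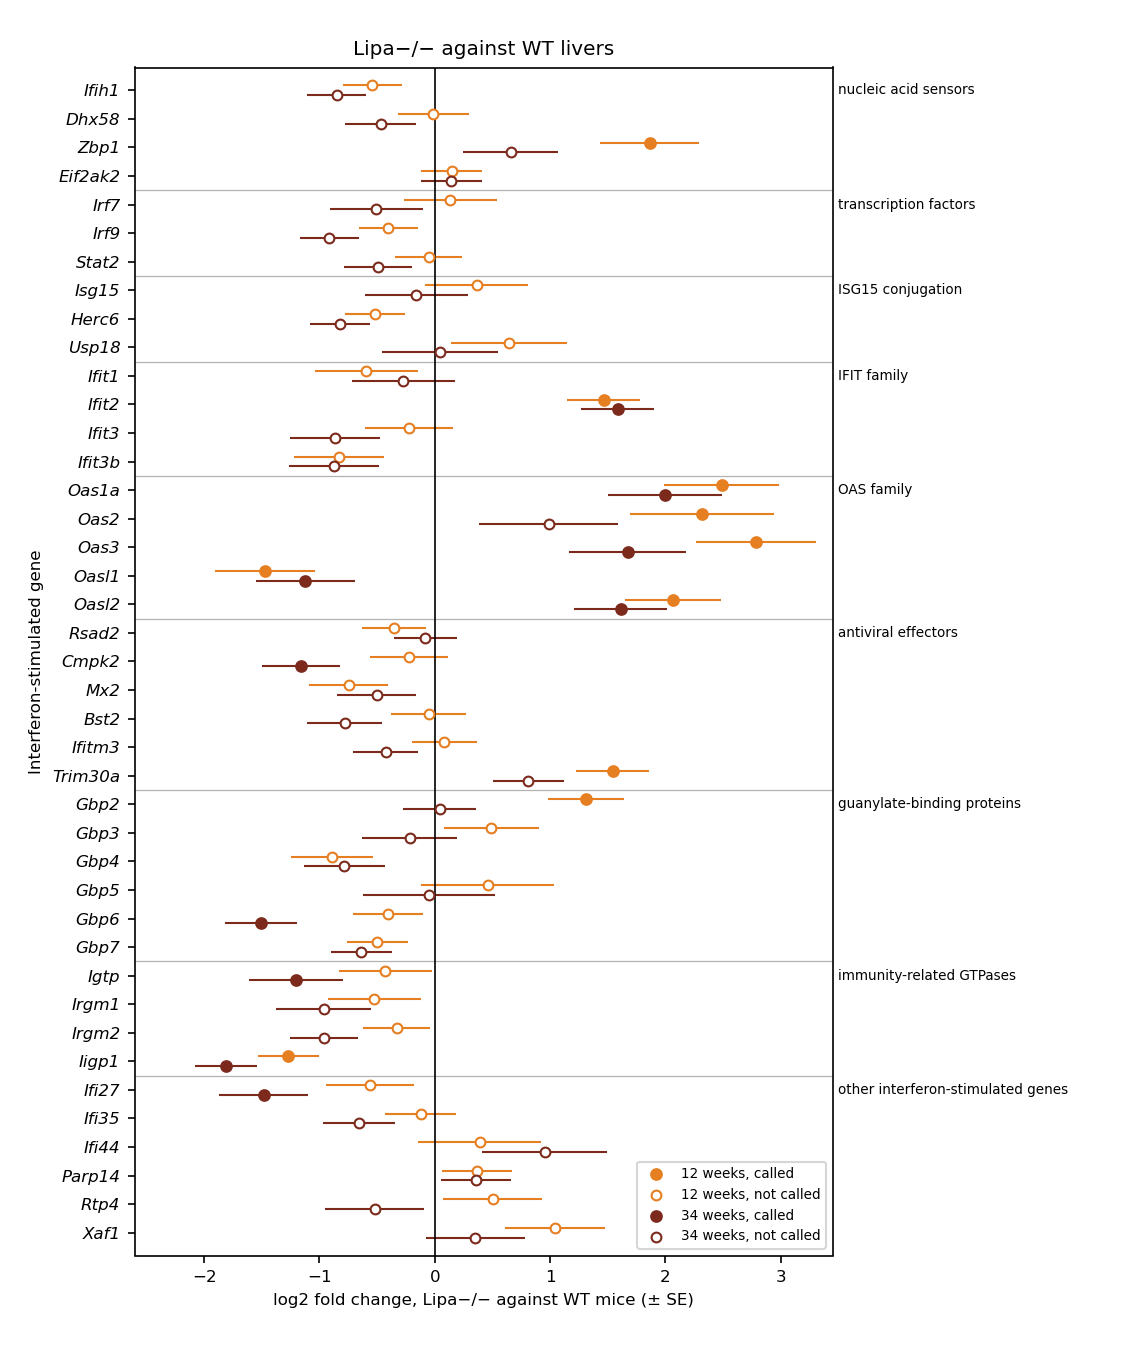
Log2 fold change of each member between Lipa-/- (KO) and WT mice at 12 and 34 weeks, with standard errors from the edgeR fit and members ordered by role group. The OAS genes other than Oasl1, with Ifit2, lie to the right at both times (Oas3 at 2.79 and 1.67), and Iigp1 lies to the left (-1.27 and -1.81).

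Levels between genes were compared in the deposited TPM, which are per length. Ifitm3 had the highest mean over the 18 mice, 853 TPM, followed by Bst2 with 341, Ifi27 with 248 and Iigp1 with 71.1. The lowest was Oas3 with 0.486 TPM. In the calls, which rest on TMM-scaled counts, Ifitm3 and Bst2 did not differ between Lipa-/- and WT mice at either time. In TPM at 12 weeks, however, both were higher in every Lipa-/- mouse than in every WT mouse. Ifitm3 was at 1055 to 1154 TPM against 695.2 to 793.5, and Bst2 at 341.2 to 436.3 TPM against 272.1 to 311.7. At the later time the TPM of Lipa-/- and WT mice overlapped for both genes. Whether these abundant members rose at 12 weeks thus depended on the measure, and the TPM were not tested. The TPM of other uncalled members, among them Isg15, Irf7, Ifi35 and Dhx58, also separated Lipa-/- from WT mice at 12 weeks, upwards.

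**Figure D2:**
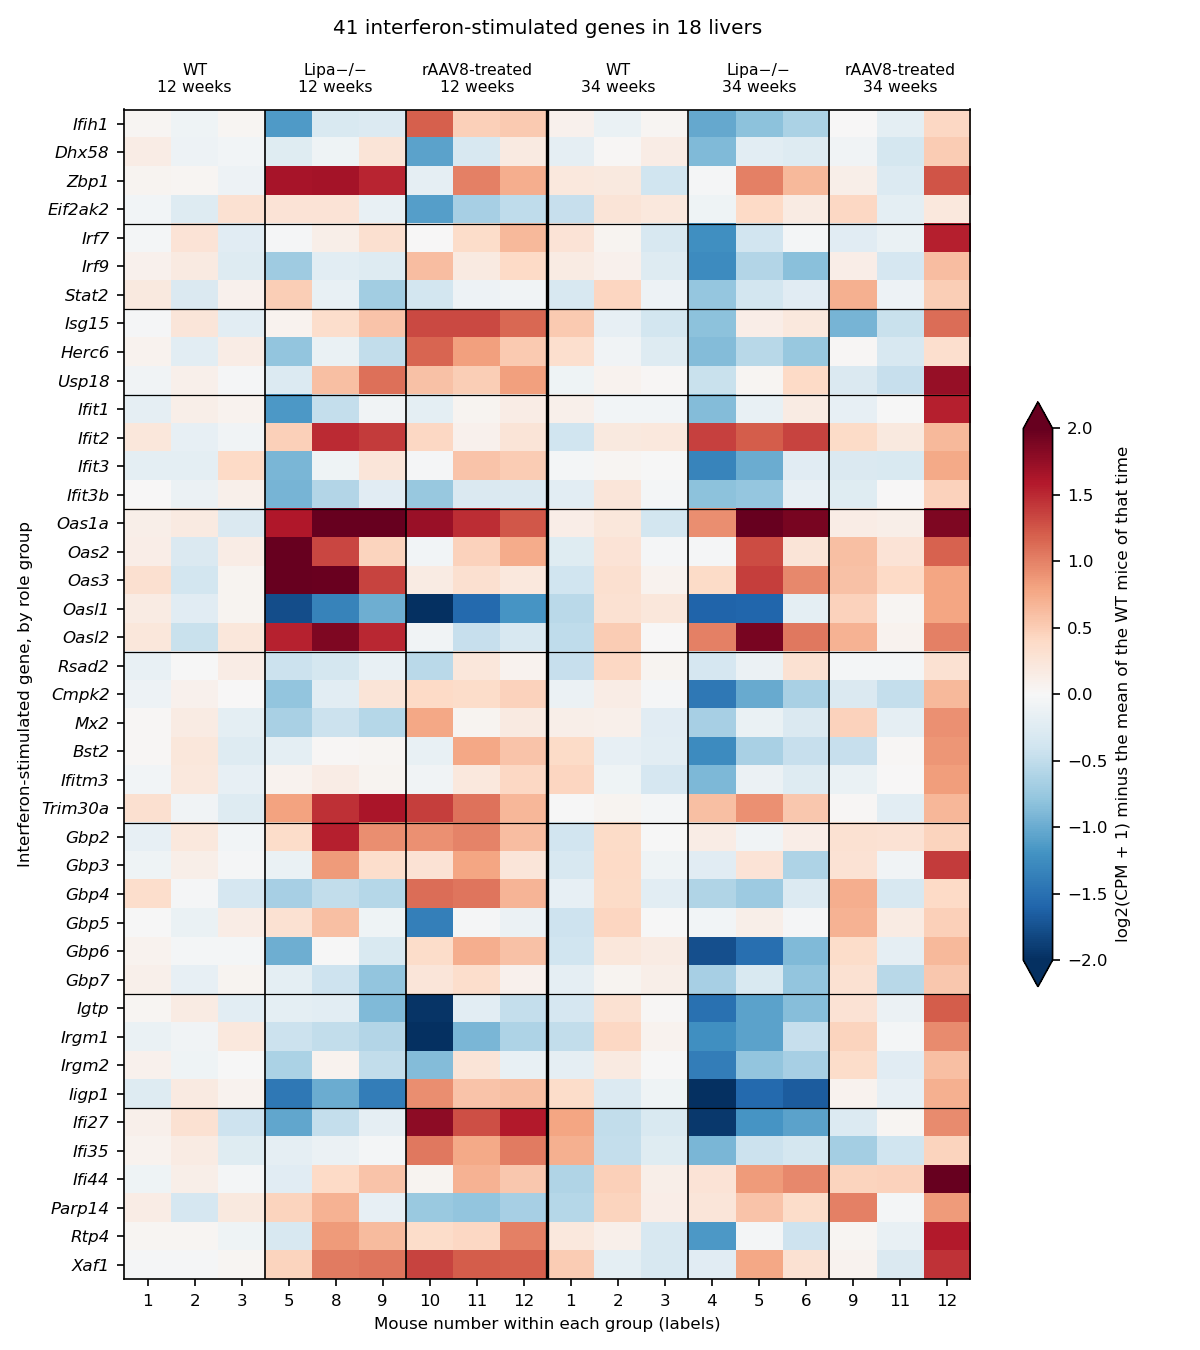
Heat map of the 41 members (rows, by role group) in the 18 mice (columns, by group), coloured by log2(CPM + 1) minus the gene's mean over the WT mice of that time, with KO for Lipa-/- and KOT for treated Lipa-/- mice. The OAS rows other than Oasl1 are higher in the Lipa-/- groups, with overlap for Oas2, and mouse 12 of the treated mice at 34 weeks is high for most rows.

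In Lipa-/- against WT mice at 12 weeks the OAS family held the largest rises among the members. Oas1a, Oas2, Oas3 and Oasl2 rose in Lipa-/- mice at 12 weeks, between 4.20- and 6.90-fold, while Oasl1 fell. The OAS enzymes make the short adenylate chains that activate RNase L, which degrades RNA. In WT mice at 12 weeks, Oas1a was measured at 3.54, 3.73 and 2.41 CPM, and in Lipa-/- mice at 11.8, 18.3 and 24.5 CPM. The 2 groups did not overlap, and the difference was 2.49 ± 0.50 on the log2 scale (SE, adjusted p = 0.000848, edgeR). At 34 weeks the WT mice were at 2.95, 3.19 and 1.79 CPM and the Lipa-/- mice at 5.83, 13.5 and 12.4 CPM, again without overlap (2.00 ± 0.50, adjusted p = 0.00322, edgeR). Treated mice kept part of this difference at 12 weeks, with Oas1a at 12.8, 10.7 and 8.89 CPM, all above WT (1.74 ± 0.49, adjusted p = 0.0145, edgeR) though not past the threshold without WT mouse 3 or treated mouse 10 (adjusted p = 0.0691 and 0.0638). At 34 weeks treated mice 9 and 11 were at 2.97 and 2.90 CPM, within the WT range, and mouse 12 was at 12.1 CPM. Oas1a has near-identical neighbours, among which the counting could split reads.

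Oas3, the long form of the synthetase, was at 1.07, 0.287 and 0.733 CPM in WT mice and at 5.64, 5.55 and 3.23 CPM in Lipa-/- mice at 12 weeks (2.79 ± 0.52 on the log2 scale, adjusted p = 0.000462, edgeR). At 34 weeks it was at 0.236, 1.03 and 0.701 CPM in WT mice and at 1.10, 3.21 and 2.17 CPM in Lipa-/- mice (1.67 ± 0.51, adjusted p = 0.0122), a call that was lost without WT mouse 1 or Lipa-/- mouse 5 (adjusted p = 0.0502 and 0.0701). All 3 Lipa-/- mice were above all WT mice at each time. In treated mice Oas3 was at 0.875, 1.09 and 0.920 CPM at 12 weeks, below every untreated Lipa-/- mouse of that time (-2.31 ± 0.52, adjusted p = 0.0015, edgeR). At 34 weeks treated mice were at 1.42, 1.15 and 1.79 CPM, all above the WT mice and overlapping the untreated Lipa-/- mice, and the difference from neither group was called.

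Oasl2, an OAS-like protein with a ubiquitin-like tail, also rose at both times. It was at 2.25, 1.05 and 2.25 CPM in WT mice, at 7.13, 9.20 and 6.95 CPM in Lipa-/- mice and at 1.65, 1.03 and 1.23 CPM in treated mice at 12 weeks. The Lipa-/- mice were above WT mice by 2.07 ± 0.42 on the log2 scale (adjusted p = 0.00088, edgeR), and treated mice were below untreated ones by -2.59 ± 0.44 (adjusted p = 0.000186). At the later time it was at 1.42, 3.86 and 2.45 CPM in WT mice and at 5.93, 11.8 and 6.14 CPM in Lipa-/- mice (1.61 ± 0.40, adjusted p = 0.00352). Treated mice at 34 weeks were at 4.59, 2.62 and 5.91 CPM, below every untreated Lipa-/- mouse, a difference that was not called (-0.86 ± 0.39, adjusted p = 0.0939, edgeR).

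Oas2 was the least stable of the 4 that rose. It was at 0.911, 0.431 and 0.942 CPM in WT mice and at 6.60, 3.42 and 1.37 CPM in Lipa-/- mice at 12 weeks, without overlap (2.32 ± 0.63 on the log2 scale, adjusted p = 0.00748, edgeR). Without Lipa-/- mouse 5 the difference was 1.66 and no longer past the threshold (adjusted p = 0.0515). In the older groups WT mice were at 0.767, 1.54 and 1.05 CPM and Lipa-/- mice at 1.07, 4.17 and 1.51 CPM, and the groups overlapped (0.99 ± 0.60, adjusted p = 0.189). With total counts this difference was called (1.55, adjusted p = 0.0495, edgeR). Treated mice were at 0.680, 1.41 and 1.92 CPM at 12 weeks and at 2.19, 1.53 and 3.74 CPM at 34 weeks.

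Oasl1, known to hold back translation of Irf7 mRNA, went the other way. It was at 18.6, 13.97 and 17.1 CPM in WT mice at 12 weeks, and at 4.12, 5.94 and 7.88 CPM in Lipa-/- mice (-1.47 ± 0.43 on the log2 scale, adjusted p = 0.0124, edgeR). Treated mice at 12 weeks were also low, at 2.43, 4.95 and 6.67 CPM (-1.81 ± 0.45 against WT, adjusted p = 0.00832). Both groups lay wholly below WT mice. At the later time WT mice were at 8.85, 16.8 and 15.8 CPM, Lipa-/- mice at 3.72, 3.79 and 11.5 CPM and treated mice at 18.6, 13.8 and 23.7 CPM. The Lipa-/- mice then overlapped the WT mice (-1.12 ± 0.43, adjusted p = 0.0402), whereas the treated mice lay above every untreated Lipa-/- mouse (1.56 ± 0.43, adjusted p = 0.00801), a call lost without Lipa-/- mouse 4 (adjusted p = 0.0537) and with total counts (adjusted p = 0.0659). The fall in Lipa-/- mice was not called with total counts in place of TMM at either time (adjusted p = 0.0899 and 0.302), nor without Lipa-/- mouse 5 at 12 weeks (adjusted p = 0.0551), and at 34 weeks it was lost without any 1 of WT mice 2 and 3 and Lipa-/- mice 4 and 5 (adjusted p from 0.101 to 0.185).

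**Figure D3:**
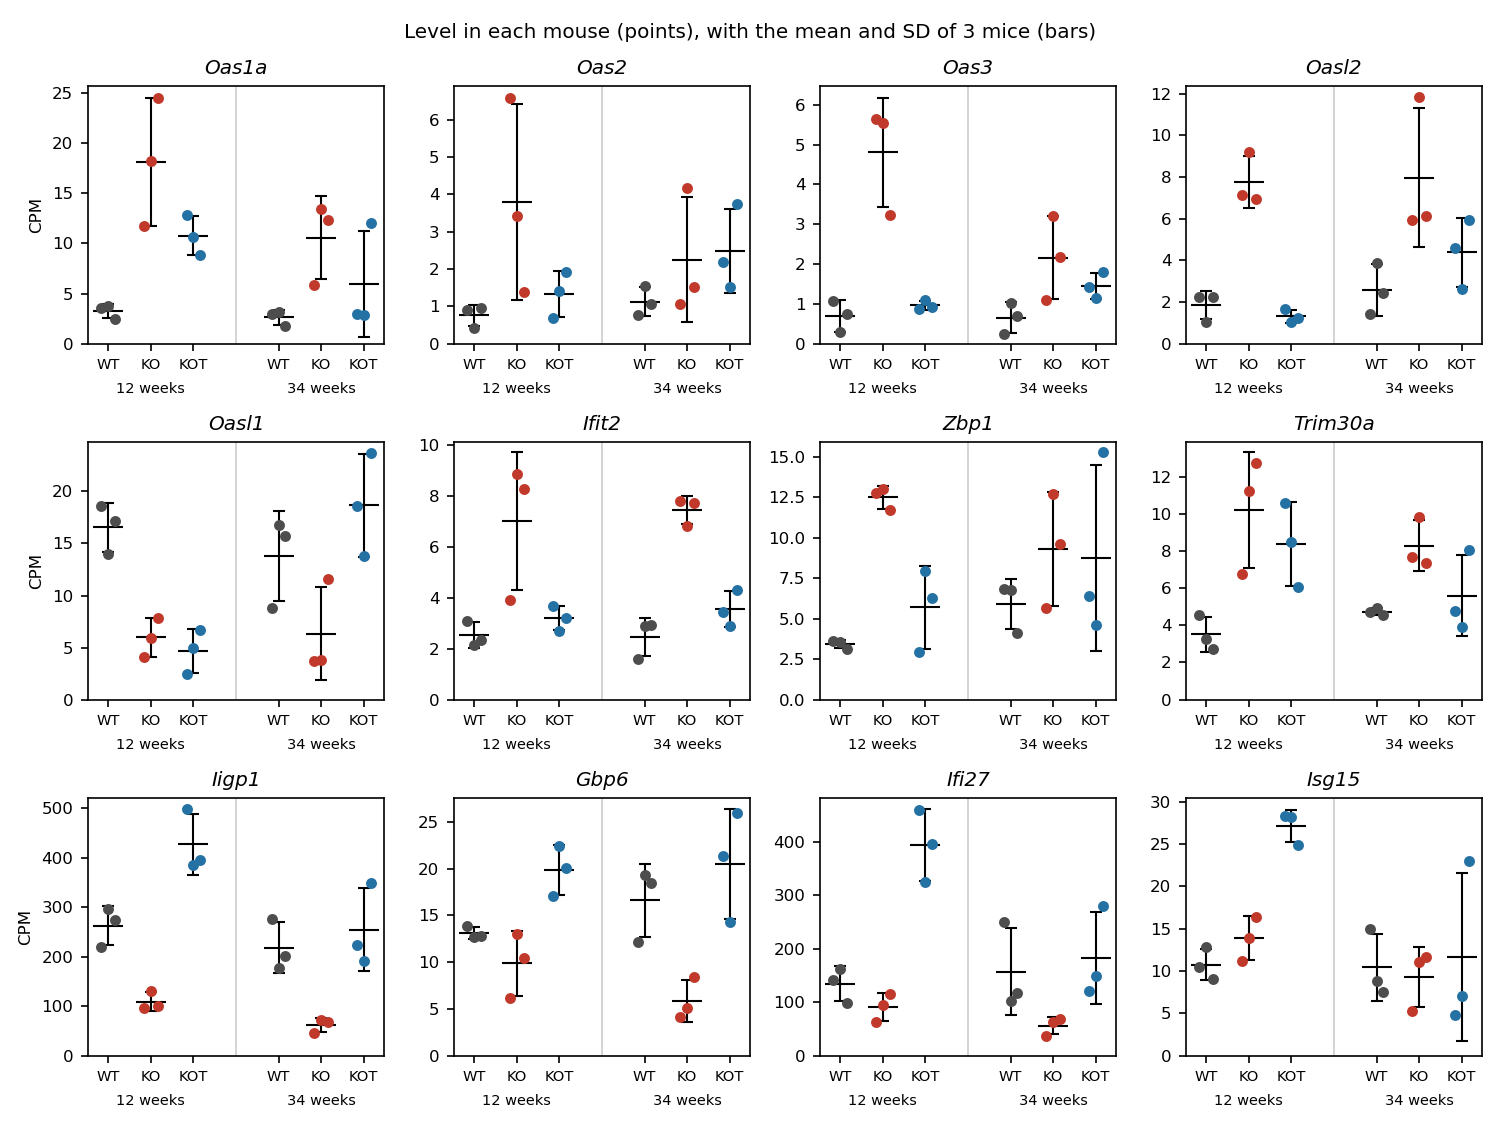
CPM of 12 members in each of the 18 mice (points), with the mean and 1 SD of each group of 3. The groups at each time are WT, KO (Lipa-/-) and KOT (Lipa-/- given the vector). Oas1a, Oas3, Oasl2 and Ifit2 separate Lipa-/- from WT mice at both times, and Iigp1 and Oasl1 do so downwards, with overlap for Oasl1 at 34 weeks.

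Of the IFIT family, whose proteins bind foreign RNA, 1 of 4 members moved in Lipa-/- mice. Ifit2 was at 3.11, 2.15 and 2.36 CPM in WT mice and at 3.90, 8.86 and 8.29 CPM in Lipa-/- mice at 12 weeks (1.46 ± 0.32 on the log2 scale, adjusted p = 0.00154, edgeR). At 34 weeks it was at 1.59, 2.88 and 2.92 CPM in WT mice and at 7.82, 6.84 and 7.72 CPM in Lipa-/- mice (1.59 ± 0.32, adjusted p = 0.000565). The groups did not overlap at either time. Treated mice were at 3.69, 2.72 and 3.22 CPM at 12 weeks and at 3.46, 2.90 and 4.32 CPM at 34 weeks, below every untreated Lipa-/- mouse of the same time, and Ifit2 was the 1 member called lower in treated than in untreated mice at both times (-1.13 ± 0.32, adjusted p = 0.00686, and -1.06 ± 0.31, adjusted p = 0.0108, edgeR). The 12-week difference was under the fold threshold without Lipa-/- mouse 8 (-0.93) or 9 (-0.997) and with the trend on gene length removed (-0.83), and the 34-week call was lost without treated mouse 11 (adjusted p = 0.0523). Ifit3 was the family's most abundant member by TPM and was not called against WT mice. It was at 8.79, 8.85 and 13.8 CPM in WT mice, 5.00, 9.67 and 12.3 CPM in Lipa-/- mice and 10.1, 15.8 and 15.0 CPM in treated mice at 12 weeks. In the older groups it was at 10.8, 11.5 and 11.0 CPM in WT mice, and Lipa-/- mice lay lower, at 3.85, 5.06 and 9.37 CPM, without a call (-0.87 ± 0.39, adjusted p = 0.0757, edgeR). Without Lipa-/- mouse 6 this difference was called (-1.31, adjusted p = 0.0171, edgeR). Treated mice at 34 weeks were at 8.94, 8.74 and 19.4 CPM. Ifit3 and Ifit3b are near-identical and their reads could be split by the counting, and Ifit1 and Ifit3b lay at or below 17.4 CPM in every mouse and were called in no comparison.

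Among the sensors of foreign nucleic acid, Zbp1, which binds left-handed nucleic acid and can trigger cell death, rose 3.64-fold in Lipa-/- mice at 12 weeks. It was at 3.59, 3.54 and 3.14 CPM in WT mice and at 12.8, 13.0 and 11.7 CPM in Lipa-/- mice, a tight separation (1.86 ± 0.43 on the log2 scale, adjusted p = 0.0024, edgeR). At 34 weeks WT mice were at 6.84, 6.74 and 4.13 CPM and Lipa-/- mice at 5.64, 12.7 and 9.59 CPM, and the groups overlapped (0.66 ± 0.41, adjusted p = 0.204). This difference was called with total counts (1.27, adjusted p = 0.0234, edgeR) and with the trend on gene length removed (1.08, adjusted p = 0.0269, edgeR). In TPM the 34-week groups did not overlap, at 12.49 to 19.76 in Lipa-/- against 5.034 to 9.345 in WT mice. Treated mice were at 2.92, 7.93 and 6.29 CPM at 12 weeks and at 6.38, 4.59 and 15.3 CPM at 34 weeks. The RNA helicase Ifih1 (MDA5) was not called in Lipa-/- mice at either time (log2 differences of -0.54 and -0.85) and was higher in treated than in untreated mice at 12 weeks (1.33 ± 0.26, adjusted p = 0.000492, edgeR), at 39.6 to 65.9 CPM against 12.3 to 23.3 CPM, though not with total counts (0.43, adjusted p = 0.136). Dhx58 and the RNA-activated kinase Eif2ak2 were not called between groups at either time.

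None of the 3 transcription factors was called in Lipa-/- mice, though Irf9 was lower at 34 weeks by a difference just under the fold threshold. Irf7, which drives transcription of the interferons, was at 31.1, 39.2 and 27.3 CPM in WT mice, 31.7, 35.0 and 40.6 CPM in Lipa-/- mice and 32.3, 41.8 and 50.8 CPM in treated mice at 12 weeks, and all 3 groups overlapped. The log2 difference between Lipa-/- and WT mice was 0.14 with a 95% interval from -0.72 to 0.99 (adjusted p = 0.817, edgeR). In TPM, which were not tested, Lipa-/- mice lay above WT mice at 12 weeks, at 21.07 to 31.08 against 16.13 to 18.66. At the later time WT mice were at 39.2, 33.7 and 25.7 CPM, Lipa-/- mice at 13.3, 24.6 and 31.4 CPM and treated mice at 27.5, 29.4 and 97.5 CPM. Treated mouse 12 was thus far above the other 17 mice, and the call of treated against untreated mice (1.16 ± 0.41, adjusted p = 0.0312) was lost without it (0.28, adjusted p = 0.509). Irf9, which binds the ISRE in a complex with Stat2, was at 31.9, 34.2 and 24.9 CPM in WT mice, 17.99, 25.8 and 25.0 CPM in Lipa-/- mice and 46.5, 34.1 and 40.0 CPM in treated mice at 12 weeks. In the older groups it was at 33.9, 32.2 and 25.0 CPM in WT mice and lay below all of them in Lipa-/- mice, at 12.1, 19.8 and 16.4 CPM (-0.92 ± 0.26, adjusted p = 0.00727). Treated mice at 34 weeks were at 33.2, 23.6 and 46.7 CPM and were called higher than untreated mice (1.10 ± 0.26, adjusted p = 0.00243, edgeR), though below the fold threshold without mouse 12 (0.80) or Lipa-/- mouse 4 (0.90) and with total counts (0.59). Stat2 was called in no comparison.

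Isg15 and its conjugation machinery were not called in Lipa-/- mice. Isg15, a ubiquitin-like protein attached to other proteins, was at 10.5, 12.8 and 9.06 CPM in WT mice and 11.2, 13.9 and 16.4 CPM in Lipa-/- mice at 12 weeks. Treated mice were at 28.3, 28.3 and 24.9 CPM, above every other mouse of that time (1.33 ± 0.45 against WT on the log2 scale, adjusted p = 0.0305, edgeR). In TPM, which are per length, treated mice lay at 28.2 to 41.5 and overlapped the untreated Lipa-/- mice, at 28.4 to 44.8. WT mice were at 18.92 to 22.05 TPM, below every mouse of both groups, and the TPM were not tested. The call against WT was lost on leaving out any 1 of the mice concerned other than WT mouse 2 (adjusted p from 0.0513 to 0.107), and with total counts (adjusted p = 0.0892). At the later time WT mice were at 14.9, 8.87 and 7.51 CPM, Lipa-/- mice at 5.23, 11.1 and 11.7 CPM and treated mice at 4.80, 7.10 and 23.0 CPM, and all overlapped. Usp18, the protease that removes Isg15 and dampens signalling at the type I receptor, was at 6.59, 7.51 and 6.81 CPM in WT mice, 5.61, 11.0 and 16.0 CPM in Lipa-/- mice and 11.0, 10.2 and 13.0 CPM in treated mice at 12 weeks. At 34 weeks it was at 5.60, 6.35 and 6.15 CPM in WT mice, 4.16, 6.22 and 8.31 CPM in Lipa-/- mice and 4.76, 4.10 and 22.6 CPM in treated mice. Usp18 was called in none of the 11 comparisons. Herc6, the mouse Isg15 ligase, was higher in treated than in untreated Lipa-/- mice at 12 weeks (1.43 ± 0.26, adjusted p = 0.000336, edgeR), a call lost with total counts (0.56) and with DESeq2 (0.94).

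Of the 6 other antiviral effectors, Trim30a rose in Lipa-/- mice at 12 weeks and Cmpk2 fell at 34 weeks. Trim30a, a tripartite motif protein, was at 4.56, 3.25 and 2.72 CPM in WT mice and at 6.74, 11.2 and 12.7 CPM in Lipa-/- mice (1.54 ± 0.32 on the log2 scale, adjusted p = 0.000977, edgeR). Treated mice at 12 weeks were at 10.6, 8.48 and 6.06 CPM, also all above WT (1.25 ± 0.32, adjusted p = 0.00917), a call lost without WT mouse 3 or treated mouse 10 (adjusted p = 0.0522 and 0.0573) and with total counts (0.0558). In the older groups WT mice were at 4.72, 4.93 and 4.55 CPM, Lipa-/- mice at 7.69, 9.86 and 7.35 CPM and treated mice at 4.80, 3.93 and 8.05 CPM, and the difference between Lipa-/- and WT mice was under the fold threshold (0.81 ± 0.31, adjusted p = 0.0398). With total counts that difference was called (1.44, adjusted p = 0.00189, edgeR). Ifitm3, which blocks virus entry from endosomes, was at 369, 448 and 344 CPM in WT mice, 406, 426 and 398 CPM in Lipa-/- mice and 368, 445 and 513 CPM in treated mice at 12 weeks. At 34 weeks it was at 463, 324 and 274 CPM in WT mice, 185, 317 and 287 CPM in Lipa-/- mice and 314, 348 and 614 CPM in treated mice. The 3 groups overlapped in CPM at both times. Cmpk2, a mitochondrial nucleotide kinase, was at 8.61 to 10.6 CPM in WT mice and 2.90 to 5.66 CPM in Lipa-/- mice at 34 weeks (-1.16 ± 0.34, adjusted p = 0.00956, edgeR). That call was lost without Lipa-/- mouse 4 (adjusted p = 0.0649, edgeR) and with total counts (-0.57, adjusted p = 0.186, edgeR). Mx2, Bst2 and Cmpk2 were higher in treated than in untreated mice at 34 weeks, and none of these 3 calls held without treated mouse 12. Rsad2 was called in no comparison.

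The guanylate-binding proteins, GTPases that gather on pathogen vacuoles, were split. Gbp2 was at 1.88, 2.73 and 2.09 CPM in WT mice and at 3.12, 8.47 and 5.09 CPM in Lipa-/- mice at 12 weeks (1.31 ± 0.33 on the log2 scale, adjusted p = 0.00445, edgeR), a difference of 0.88 without Lipa-/- mouse 8. Treated mice were at 5.05, 5.38 and 3.91 CPM (1.10 ± 0.33 against WT, adjusted p = 0.019), a call lost with total counts and without any 1 of WT mice 1 and 3 and treated mice 10 and 11 (adjusted p from 0.053 to 0.134). Gbp2 was not called between groups at 34 weeks, with WT mice at 2.95, 5.68 and 4.13 CPM, Lipa-/- mice at 4.67, 3.90 and 4.63 CPM and treated mice at 5.37, 5.30 and 5.95 CPM. Gbp6 was at 13.8, 12.7 and 12.8 CPM in WT mice, 6.18, 13.1 and 10.4 CPM in Lipa-/- mice and 17.1, 22.4 and 20.1 CPM in treated mice at 12 weeks. At the later time it was at 12.2, 19.3 and 18.4 CPM in WT mice and at 4.10, 5.06 and 8.42 CPM in Lipa-/- mice, without overlap (-1.51 ± 0.31, adjusted p = 0.000778, edgeR), and treated mice were back at 21.3, 14.3 and 25.99 CPM (1.81 ± 0.31 against untreated, adjusted p = 0.000215). With total counts the 34-week fall of Gbp6 was -0.93 and under the fold threshold, and in TPM the Lipa-/- and WT mice overlapped. Gbp4 and Gbp6 were called higher in treated than in untreated mice at both times. The 34-week call of Gbp4 was lost without Lipa-/- mouse 4 or 5 or treated mouse 9 (adjusted p = 0.0588, 0.06 and 0.0795) and with total counts (0.179). The 12-week call of Gbp6 was lost with total counts (0.16), with DESeq2 (0.78) and without filter (0.98), and without treated mouse 11 (0.91) or 12 (0.97) or Lipa-/- mouse 5 (0.76). Gbp3, Gbp5 and Gbp7 were called in no comparison. Members of this family are similar in sequence, so that reads could be shared among them.

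Of the 4 immunity-related GTPases, which act on the same vacuoles, Iigp1 fell in Lipa-/- mice at 12 weeks, and Iigp1 and Igtp fell at 34 weeks. Iigp1, the most abundant of the 4, was at 219, 297 and 273 CPM in WT mice and at 96.4, 131 and 99.7 CPM in Lipa-/- mice at 12 weeks (-1.27 ± 0.26 on the log2 scale, adjusted p = 0.00111, edgeR). In the older groups it was at 276, 176 and 201 CPM in WT mice and at 46.6, 72.5 and 67.1 CPM in Lipa-/- mice (-1.81 ± 0.27, adjusted p = 3.84e-05). Every Lipa-/- mouse was below every WT mouse at both times. Treated mice were at 498, 386 and 396 CPM at 12 weeks and at 224, 191 and 350 CPM at 34 weeks, above every untreated Lipa-/- mouse (1.97 ± 0.27, adjusted p = 2.93e-05, and 2.04 ± 0.27, adjusted p = 1.88e-05, edgeR). With total counts in place of TMM the 12-week fall was -0.80 and under the fold threshold. Irgm1, a regulator of the other GTPases, was at 39.8, 41.4 and 50.5 CPM in WT mice and 32.2, 30.6 and 28.8 CPM in Lipa-/- mice at 12 weeks, and at 5.73, 22.6 and 28.1 CPM in treated mice. Treated mice were below WT mice (-1.21 ± 0.41, adjusted p = 0.0315, edgeR), a call lost without treated mouse 10 (-0.86, adjusted p = 0.0658), WT mouse 1 (adjusted p = 0.0538) or WT mouse 3 (adjusted p = 0.0999). At 34 weeks Irgm1 was at 27.4, 52.5 and 41.1 CPM in WT mice, 16.1, 18.01 and 28.01 CPM in Lipa-/- mice and 53.7, 37.7 and 76.0 CPM in treated mice. All 4 of the family were called higher in treated than in untreated mice at 34 weeks. Of these calls, that of Irgm1 was lost without treated mouse 12 or Lipa-/- mouse 4 (adjusted p = 0.052 and 0.0577), and with total counts those of Irgm1 and Irgm2 were lost (adjusted p = 0.107 and 0.0811). Igtp fell in Lipa-/- mice at 34 weeks (-1.20 ± 0.41, adjusted p = 0.0217, edgeR), a call lost without WT mouse 2, Lipa-/- mouse 4 or Lipa-/- mouse 5 (adjusted p of 0.0718, 0.104 and 0.0534). With total counts no member of this family was called at 12 weeks and 1 at 34 weeks.

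The last 6 members have varied roles. Ifi27, a small hydrophobic protein, was at 142, 163 and 98.9 CPM in WT mice, 63.3, 94.2 and 116 CPM in Lipa-/- mice and 459, 325 and 396 CPM in treated mice at 12 weeks. Treated mice were far above both other groups (1.55 ± 0.38 against WT on the log2 scale, adjusted p = 0.00864, and 2.11 ± 0.39 against untreated, adjusted p = 0.000373, edgeR), the first of which was not past the threshold without WT mouse 3 (adjusted p = 0.0506). At the later time WT mice were at 250.5, 103 and 118 CPM, Lipa-/- mice at 37.1, 63.1 and 68.1 CPM and treated mice at 120, 148 and 280.5 CPM. The Lipa-/- mice were below all others of that time (-1.48 ± 0.38 against WT, adjusted p = 0.0044, edgeR). This difference was under the fold threshold without WT mouse 1 (-0.97), with total counts (-0.81) and with the trend on length removed (-0.97). Ifi35 was at 35.5, 37.8 and 28.3 CPM in WT mice, 29.5, 31.1 and 32.9 CPM in Lipa-/- mice and 70.6, 57.3 and 70.5 CPM in treated mice at 12 weeks, and was higher in treated than in untreated mice (1.09 ± 0.31, adjusted p = 0.00822, edgeR), though not with total counts (0.20) or with the trend on length removed (0.64). At 34 weeks it was at 52.5, 22.6 and 26.6 CPM in WT mice, 16.4, 23.3 and 24.6 CPM in Lipa-/- mice and 19.4, 23.7 and 43.5 CPM in treated mice.

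Xaf1, a binding partner of the apoptosis inhibitor XIAP, was at 3.70, 3.73 and 3.93 CPM in WT mice, 5.54, 8.82 and 9.05 CPM in Lipa-/- mice and 11.3, 10.1 and 9.97 CPM in treated mice at 12 weeks. The Lipa-/- mice lay above all WT mice without a call (1.04 ± 0.43 on the log2 scale, adjusted p = 0.0675, edgeR). They were called with total counts, with the trend on length removed and with the groups compared fitted alone (adjusted p = 0.00911, 0.0236 and 0.0134, edgeR). The treated mice were called (1.46 ± 0.44, adjusted p = 0.0186, edgeR), though not without WT mouse 1 or 3 or treated mouse 10 (adjusted p from 0.0532 to 0.0682) or with total counts (0.0588). In the older groups WT mice were at 6.90, 3.86 and 3.43 CPM, Lipa-/- mice at 3.72, 8.50 and 5.81 CPM and treated mice at 4.84, 3.55 and 14.1 CPM, and all overlapped. Parp14, an ADP-ribosyltransferase with the longest transcript of the set, was at 16.8, 11.7 and 17.4 CPM in WT mice, 20.8, 25.1 and 13.3 CPM in Lipa-/- mice and 8.65, 8.31 and 9.12 CPM in treated mice at 12 weeks. Treated mice lay below all others of that time. At 34 weeks Parp14 was at 9.91, 21.1 and 16.9 CPM in WT mice, 18.3, 23.1 and 19.99 CPM in Lipa-/- mice and 31.7, 14.9 and 28.4 CPM in treated mice. Ifi44 was called in no comparison, and Rtp4 was called only as higher in treated than in untreated mice at 34 weeks (1.26 ± 0.43, adjusted p = 0.0276, edgeR), which was lost without treated mouse 12 (0.43, adjusted p = 0.377).

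Between the times, members were called in treated mice alone. Between 12 and 34 weeks no member was called in WT mice, where 0.323% of all genes were called in either direction and 1 member had an unadjusted p under 0.05, or in Lipa-/- mice, where 0.495% were called and 5 members had an unadjusted p under 0.05. DESeq2 also called 0 in both. In treated mice 6 members were higher and 3 lower at 34 than at 12 weeks, where 17.5% of all genes were called higher and 14.5% lower. Those higher were Eif2ak2, Oasl1, Oasl2, Igtp, Irgm1 and Parp14, and those lower were Isg15, Ifi27 and Ifi35. The medians of all genes ran from -1.30 in the shortest length class to 0.66 in the longest in this comparison. With the trend on gene length removed, the 3 lower calls were lost (Isg15 at -0.0076, Ifi27 at 0.0207 and Ifi35 at -0.72), as were the higher calls of Eif2ak2 (0.67) and Parp14 (0.74). With total counts 13 were higher and 0 lower, where the median of all genes moved from 0.08 to 0.71. The difference between treated and WT mice changed between the times for 2 members, where 18.4% of all genes were called in either direction. These were Oasl1 (2.25 ± 0.61 on the log2 scale, adjusted p = 0.027, edgeR) and Parp14 (1.46 ± 0.44, adjusted p = 0.0332). Neither call held without WT mouse 1 or WT mouse 3 of 12 weeks, WT mouse 1 of 34 weeks, treated mouse 10 of 12 weeks or treated mouse 9 of 34 weeks.

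Gene length moved with the treated group at 12 weeks. Over all genes tested, the median log2 difference between treated and WT mice at 12 weeks was 1.25 in genes of up to 500 bases, 0.80 from 500 to 1000, 0.21 from 1000 to 2000, -0.16 from 2000 to 4000 and -0.39 above 4000 bases. The corresponding medians in Lipa-/- against WT mice lay between -0.03 and 0.27 at 12 weeks, and at 34 weeks between -0.33 and 0.20. In treated against untreated mice at 12 weeks they ran from 0.72 in the shortest class to -0.54 in the longest, and with the trend removed Ifi35 (0.64), Ifit2 (-0.83) and Parp14 (-0.73) were under the fold threshold there and Oas2 (adjusted p = 0.0824) was not past the test. Isg15, with a mean length of 454 bases, Ifi27 with 576 and Xaf1 with 627 were among the 7 members called higher in treated mice, and Parp14 had 6982 bases. With the trend on length removed from every mouse, an alternative chosen after seeing the data, Isg15 (0.33, adjusted p = 0.4), Ifi27 (0.70, adjusted p = 0.0159) and Xaf1 (0.64, adjusted p = 0.153) were no longer called in treated against WT mice. Ifih1 (1.31), Herc6 (1.44), Gbp6 (1.05) and Iigp1 (1.07) were called higher in their place, and the calls of Oas1a (1.80), Trim30a (1.69), Gbp2 (1.36), Gbp4 (1.65), Oasl1 (-1.72) and Irgm1 (-1.12) were retained. In Lipa-/- against WT mice at 12 weeks the 10 calls became 9 higher and 2 lower, and at 34 weeks 5 higher and 3 lower.

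**Figure D4:**
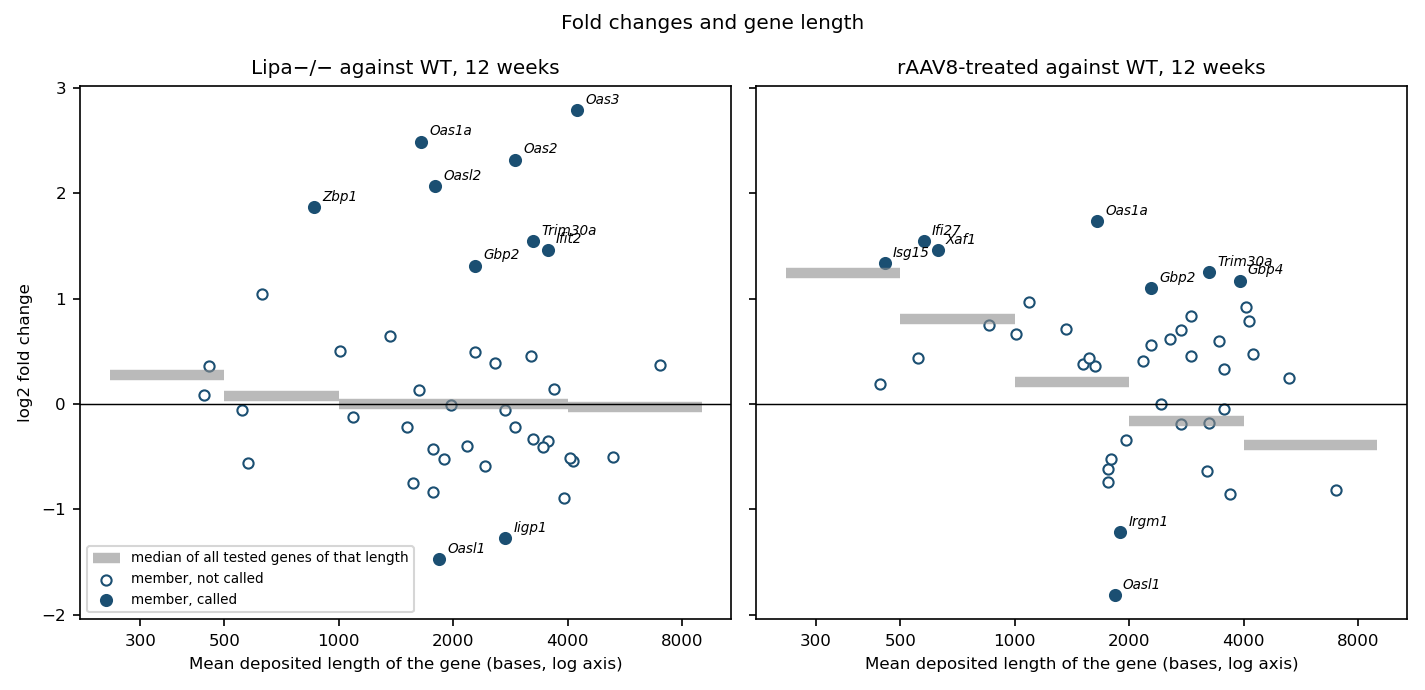
Log2 fold change against mean gene length in bases (log axis) at 12 weeks, for Lipa-/- (KO) against WT mice and for treated Lipa-/- (KOT) against WT mice. Members are points, and bars give the median of all tested genes in each length class. In treated mice at 12 weeks the median of all genes falls from 1.25 in the shortest class to -0.39 in the longest.

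Within the treated mice of 34 weeks, mouse 12 stood apart. It was the highest of its group for 36 of 41 members and the highest of all 18 mice for 21, and its members summed to 2483 CPM against 1341 and 1288 CPM in the other 2 mice. Its neutrophil markers summed to 294.5 CPM against 1.26 and 1.95 CPM, and its plasmacytoid dendritic cell markers to 28.7 against 1.58 and 2.64 CPM. The part of these cells in the members' levels was not tested. How many of all genes tested were highest or lowest in a single mouse of a group was not counted. Of the 41 members, 40 lay above 0 in treated against WT mice at 34 weeks, with a median of 0.38. Of all 14533 genes tested, 7313 lay above 0, with a median of 0.0025. Without mouse 12, 19 members lay above 0, with a median of -0.07. The count of members higher in treated than in untreated mice fell from 15 to 7 without it. In untreated Lipa-/- mice at 34 weeks, mouse 4 was the lowest of its group for 35 of 41 members, and its members summed to 606.5 CPM against 958 and 959.5 CPM. Its TMM factor, 1.69, was the largest of the 18 mice, and members held 0.102% of its assigned reads against 0.136% and 0.132%. Without it, the 6 members called lower than WT became 3, and without mouse 6 they became 10. Among untreated Lipa-/- mice at 12 weeks, mouse 5, which carries a label prefix of its own, was the lowest of its group for 29 of 41 members, with a median ratio of 0.739 to the other 2 mice. Without it, the 8 members called higher than WT and 2 lower became 7 and 1, and the calls of Oas2 and Oasl1 were lost.

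**Figure D5:**
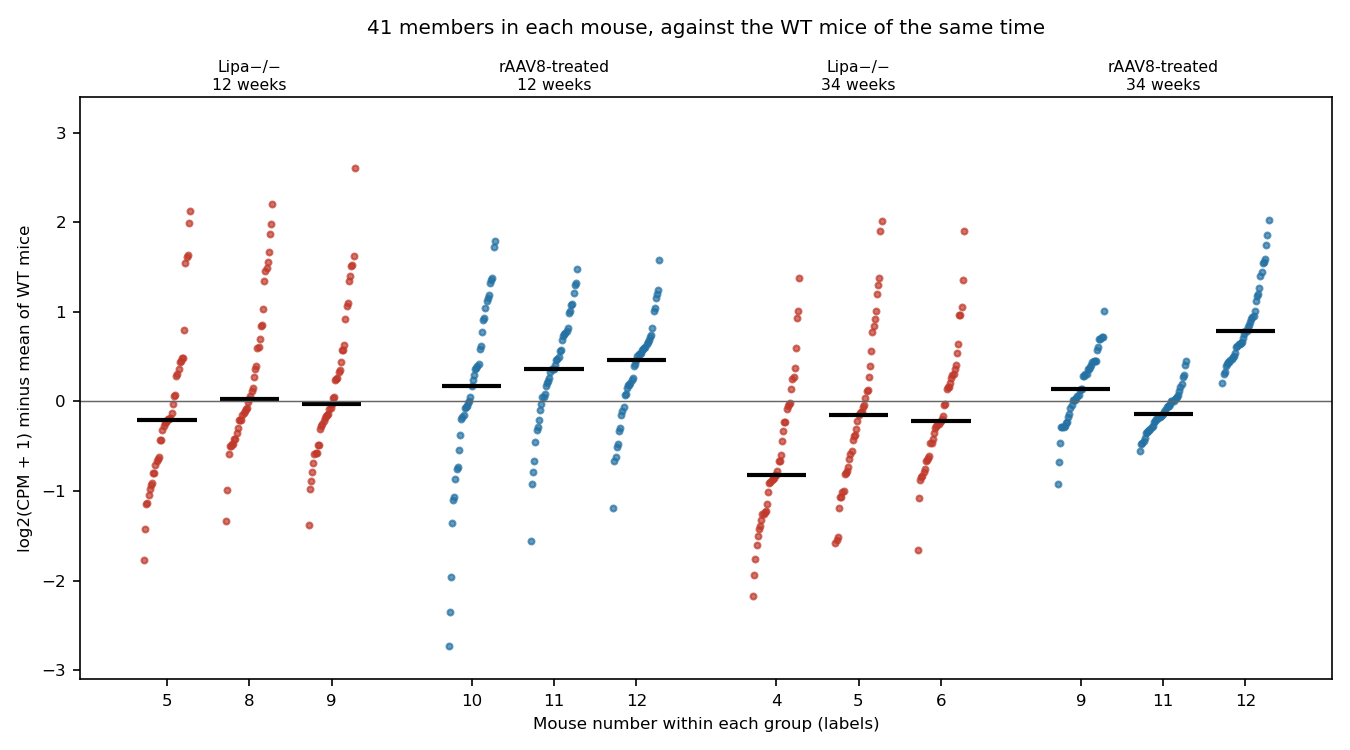
Log2(CPM + 1) minus the WT mean of the same time for the 41 members in each untreated and treated Lipa-/- mouse, with points for the members and a bar at their median. Colours separate KO (Lipa-/-) and KOT (Lipa-/- given the vector), and WT mice are not drawn. The median of treated mouse 12 at 34 weeks lies above those of the other 2 mice of its group, and that of Lipa-/- mouse 4 at 34 weeks lies below those of its group.

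The rest of the pathway was read from lists of ligands, receptors, signalling genes and further interferon-stimulated genes. None of the 21 interferon genes listed passed the filter, which asks for more than 100 reads summed over the 18 mice. Of all genes tested, 20.2% were called higher in Lipa-/- mice at 12 weeks and 20.5% at 34 weeks, and 9.06% and 15.7% lower. Of 6 receptor genes, 4 rose at both times, namely Ifngr1 (log2 differences of 2.44 at 12 and 2.21 at 34 weeks), Ifngr2 (2.01 and 1.52), Il10rb (3.75 and 3.07) and Ifnlr1. Ifngr1, a chain of the type II receptor, averaged 12.5 ± 3.10 CPM in WT and 68.1 ± 16.4 CPM in Lipa-/- mice at 12 weeks (SD, n = 3). Ifnlr1, a chain of the type III receptor, was at or below 0.0590 CPM in every WT mouse, under 3 reads, and at 0.390 to 1.58 CPM in Lipa-/- mice. The type I receptor genes Ifnar1 and Ifnar2 were under the fold threshold at both times, at 0.56 and 0.63 for Ifnar1.

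Of 9 kinases and further STAT and IRF factors, 2 rose at both times, Irf5 (1.11 and 2.05) and Irf8 (3.03 and 2.59), both known from myeloid cells, a share near the background of 20.2% and 20.5% called higher. Of 8 feedback inhibitors, 4 rose at 12 weeks and 3 at 34 weeks, and Socs3 (2.91 and 2.30), Ptpn1 (1.89 and 1.77) and Ptpn6 (1.96 and 1.11) did so at both. Of 12 upstream sensors and adaptors, 5 rose and 1 fell at 12 weeks, and 4 rose and 1 fell at 34 weeks. The DNA sensor Cgas (3.67 and 2.42), its adaptor Sting1 (2.29 and 2.44), the endosomal RNA receptor Tlr7 (4.27 and 3.57) and the kinase Ikbke (1.54 and 1.39) were higher at both times, and Mavs, the adaptor of the RNA helicases, was lower (-1.34 and -1.44). With total counts in place of TMM the fall of Mavs was called at neither time. These lists moved in the same mice in which the summed macrophage markers were higher, and the part of those cells was not tested.

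Of 58 further interferon-stimulated genes that passed the filter, 25 rose and 4 fell in Lipa-/- mice at 12 weeks, and 19 rose and 10 fell at 34 weeks, beside backgrounds of 20.2% and 9.06%, and 20.5% and 15.7%. The Schlafen genes Slfn1 (log2 differences of 4.53 at 12 and 2.51 at 34 weeks) and Slfn2 (4.66 and 3.60) and the lysosomal thiol reductase Ifi30 (3.46 and 2.34) were among those higher at both times. Gbp10 (-2.79 and -4.39) and Gbp11 (-2.23 and -3.04) were among those lower at both. The median log2 difference over the 58 genes was 0.78 at 12 weeks and 0.34 at 34 weeks, beside 0.02 and -0.03 over all genes.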

How the data were processed

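The authors sequenced polyA RNA of 18 mouse livers, quantified reads with Salmon against GRCm39 transcripts and summed them to genes with tximport. The deposited table holds estimated counts, TPM and effective gene lengths for each mouse. A further deposited table holds the authors' DESeq2 1.40.1 log2 fold changes and p-values, and was not used. Estimated counts were rounded, and the filter kept genes whose reads summed to over 100 in the 18 mice. The 6 group means were fitted with edgeR 4.0.16 in R 4.3.3 (TMM, quasi-likelihood test), with Benjamini-Hochberg adjustment over all tested genes within each of 11 comparisons. Calls needed an adjusted p under 0.05 and a log2 difference beyond 1 in either direction. CPM are TMM-scaled, and the floor of 3 reads lay between 0.0946 and 0.291 CPM. Plots add 1 CPM before the log. The mice are separate animals.

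The members and lists were chosen with earlier results of these data known. Per-mouse values are given, in each role group, for the member with the highest mean TPM and the one with the largest change in Lipa-/- against WT mice at 12 weeks, and for members called in an interaction, called in treated against WT mice at 34 weeks, or called against the direction of most members of a comparison. Pathway genes are named if called at both times. Values given beside these for other members or pathway genes were chosen after their values were seen. Tested on simulated data for Lipa-/- against WT mice at 12 weeks (14447 genes), the fit recovered 81% of 100 genes changed 4-fold with 3 false calls. As many genes were raised as lowered in that simulation, so that it could not test the scaling. With a length trend simulated for treated mice (14454 genes), the fit made 307 calls, and 0 after the trend was removed. That trend was a smooth one, of the form that the removal fits. Alternatives were other scalings, filters and tools (DESeq2 1.42.0 with length offsets), the groups compared alone, adjusted p alone, leaving out each mouse, the mouse number as a block, and, chosen after seeing the data, removal of the trend on gene length.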

Additional observations from a re-analysis of the deposited data

Results flagged for a closer look

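The difference between treated Lipa-/- and WT mice changed between 12 and 34 weeks for Oasl1 and Parp14, by a test of the change itself (interaction term, edgeR). This contrast holds genotype and vector together. Of all genes tested, 18.4% were called in it in either direction, and neither call held in every fit that left out a single mouse. For Oasl1 the log2 difference between treated and WT mice was -1.81 at 12 weeks and 0.44 at 34 weeks, and the change between the times was 2.25 ± 0.61 (adjusted p = 0.027). For Parp14 it was -0.81 and 0.65, and the change was 1.46 ± 0.44 (adjusted p = 0.0332). With the trend on gene length removed, the change was 2.20 for Oasl1 and still called, and 0.77 for Parp14 (adjusted p = 0.123). With the 4 groups concerned fitted alone, neither passed the threshold (adjusted p = 0.0549 for Oasl1 and 0.0589 for Parp14).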

How the results depend on the processing

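Of 6886 values of single members under the alternatives, 6582 kept their call or their lack of a call. A further 127 passed the threshold only under the alternative, 175 only in the reported fit, and 2 reversed in sign with a call in either fit. Sign was not compared for members called in neither fit. In treated against WT mice at 34 weeks, for instance, 40 of 41 members lay above 0, and 19 without treated mouse 12. Both reversals came with the trend on gene length removed, in treated mice between 12 and 34 weeks, where Ifitm3 went from -0.06 to 1.27 and Ifi27 from -1.10 to 0.0207. Counts of members called changed by over 1.5 times in 4 comparisons. In treated against WT mice at 12 weeks, adjusted p alone gave 14, and leaving out single mice gave 2 to 10. In treated against untreated Lipa-/- mice at 34 weeks, total counts gave 8, and leaving out single mice 6 to 21. In treated mice between the times, leaving out single mice gave 6 to 13. In the interaction for treated mice, total counts gave 4, DESeq2 5, the length trend removed 4, the 4 groups alone 0, and leaving out single mice 0 to 8. The cause of these changes was not tested. Leaving out single mice gave 8 to 11 calls in Lipa-/- against WT mice at 12 weeks, 7 to 14 at 34 weeks and 10 to 15 in treated against untreated Lipa-/- mice at 12 weeks. Mouse numbers are shared by WT mice and by treated mice of both times, but same-numbered mice correlated at 0.08, -0.24 and 0.46 in WT mice and -0.08 and -0.25 in treated mice, so that they share only a number. The number as a replicate block gave 0 calls in WT mice and 3 in treated mice, against 9 without it. With 3 mice a group, the 95% intervals of members not called reach folds over 2 in many cases, and members near 1 CPM rest on few reads.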
